A study of Homo sapiens with 9 samples.

Results

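The aminoacyl-tRNA synthetases were followed in NT2 cells exposed to the organophosphorus compounds paraoxon or mipafox. The genes were taken by symbol from the array annotation, as every gene named for an enzyme of this family, with no use of a measured value. This gave 37 genes on 41 probes, out of 34623 names in the gene column and 42405 probes on the array. A symbol ending in 2 marked an enzyme of mitochondria, and 17 genes on 17 probes were mitochondrial. The other 20 genes, on 24 probes, were cytosolic.

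NT2 (hNT2) is a human embryonal carcinoma cell line that differentiates towards neurons in the presence of retinoic acid. All cultures received 10 μM retinoic acid for 4 days (96 h), and were left as controls or were also given 1 μM paraoxon or 5 μM mipafox, with 3 one-colour Agilent arrays for each. The replicates carry the letters A, B and C, and are called biological in the labels and technical in the paper, so the p-values measure the spread between these arrays. Mipafox is a neuropathic organophosphate, paraoxon is not, and the doses differed.

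Each aminoacyl-tRNA synthetase joins an amino acid to its transfer RNA, and so supplies the ribosome with charged tRNA. Mitochondria translate their own messages with a separate set of synthetases, which are encoded in the nucleus and imported. Several cytosolic enzymes assemble into a multisynthetase complex, and many are targets of ATF4, the transcription factor that answers a shortage of amino acids. Mutations in some of them cause inherited neuropathy of the long axons, the same kind of nerve cell process that neuropathic organophosphates damage.

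ATF4 and its C/EBP partners bind a short element, and promoter windows of the family were searched for its letters, TGATGNAA, on both strands. The windows were those of RefSeq on GRCh38.p14, from 250 bases before to 50 bases after a transcription start. Of the 37 genes 30 had a window (39 windows in all). The letters stood in a window of 7 of 16 cytosolic genes, or 43.8%. They stood in 1 of 14 mitochondrial genes (7.14%) and in 1217 of 27305 genes with a window (4.46%). The cytosolic genes were AARS, CARS, GARS, IARS, MARS, NARS and TARS, and the mitochondrial gene was YARS2. Overlap of this element with other motifs was not examined, and a match of letters is not a measured binding site. The stretches printed here hold the 4 matches that lay wholly upstream of the transcription start of their window. The other matches ran across such a start or followed it. The stretches are read along the gene, with the matched letters in capitals.
AARS, chr16:70289646-70289733, minus strand: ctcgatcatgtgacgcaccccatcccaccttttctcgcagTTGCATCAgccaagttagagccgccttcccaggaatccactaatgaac
GARS, chr7:30594805-30594877, plus strand: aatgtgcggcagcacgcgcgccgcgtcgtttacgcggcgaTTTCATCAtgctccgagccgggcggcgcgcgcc
IARS, chr9:92293698-92293750, minus strand: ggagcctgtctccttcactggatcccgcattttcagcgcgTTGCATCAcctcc
YARS2, chr12:32756047-32756134, minus strand: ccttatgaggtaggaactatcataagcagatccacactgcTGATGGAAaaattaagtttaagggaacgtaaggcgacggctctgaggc

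The match began 187 bases before the start in AARS, 33 in GARS, 13 in IARS and 197 in YARS2. In the first 3 it lay on the strand opposite to the gene, and in YARS2 on the same strand. The start used for GARS is that of its window at chr7:30594628-30594927. Its other window, at chr7:30594485-30594784, ends before the match, which thus lies downstream of the start of that window. HARS and HARS2, the cytosolic and mitochondrial histidyl enzymes, are transcribed away from each other, and their windows shared 184 bases, at chr5:140691321-140691504. Neither window held the letters.

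Levels are given as log2 of the processed signal relative to the 75th percentile of the same array, averaged over the spots of a probe. They are not compared between probes. The arrays lay on 2 slides, slide 1 with all controls and mipafox A, slide 2 with mipafox B and C and every paraoxon array. Paraoxon and slide thus cannot be told apart from control arrays alone. In a fit with slide as a block, the mipafox value is mipafox A minus the controls. The paraoxon value adds to that the difference of paraoxon from mipafox B and C. All blocked values against control therefore rest on mipafox A. The well-above-background share of probes was 65.7% to 73.6% per array. All 41 probes of the family passed the filter on dim probes and were tested, no spot of theirs was saturated, and 40 were well above background on all 9 arrays. The exception was the probe of MARS2, the mitochondrial methionyl enzyme, on 7 arrays. The 9 markers of embryonal carcinoma cells on the list used were well above background on all 9 arrays, while the glial markers GFAP and AQP4, the fibroblast markers COL3A1 and DCN and the endoderm markers SOX17 and AFP were not tested because they lay near background. The remaining markers of these cell types on the lists, S100B of glia, COL1A1 and LUM of fibroblasts and GATA6 of endoderm, were well above background on all 9 arrays. Their log2 fold changes with paraoxon and mipafox were 0.15 and 0.16 for S100B, -0.14 and -0.05 for COL1A1, -0.45 and -0.50 for LUM and 0.17 and -0.06 for GATA6. The part of such cells in the results was not tested.

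By limma over the 9 arrays, 0 of the 41 probes were called for paraoxon against control, for mipafox against control or for paraoxon against mipafox, where a call needed a log2 fold change beyond 1 in either direction and a Benjamini-Hochberg adjusted p under 0.05. The share called among all 29134 tested probes was 0% in the 3 comparisons. The paper defines altered genes by these limits and reported such genes for both compounds, nearly all of them with paraoxon. Why the counts differ was not tested. At an unadjusted p under 0.05, with no fold change limit, 2 of the 41 probes lay under the limit for paraoxon and 2 for mipafox, and 0 for paraoxon against mipafox. Of all tested probes 13.3%, 6.96% and 4.02% lay under it in the 3 comparisons. Counted by gene, with the brightest probe standing for each, 1 of 37 genes (2.7%) was under it with paraoxon and 1 of 37 with mipafox. With weights estimated for each array, which put less weight on arrays that deviate, GARS and LARS had an adjusted p under 0.05 with paraoxon and AARS2, HARS, WARS and YARS2 had one with mipafox, that is 2 and 4 of 37 genes beside 13.8% and 19.8% of all tested probes. In these bulk cultures, fewer cells of a type and less RNA per cell cannot be told apart.

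The fold changes of the 37 genes lay between -0.46 and 0.34 on the log2 scale with paraoxon, and between -0.38 and 0.40 with mipafox. Over all tested probes the range was -2.96 to 3.42 with paraoxon and -2.89 to 2.68 with mipafox. By the brightest probe of each gene, none of the 37 lay beyond 0.5 in either direction, a limit chosen after the values were seen. Of all tested probes, which were not limited to the brightest of a gene, 15.9% did with paraoxon and 9.23% with mipafox. Dimmer probes of the family also lay beyond 0.5, IARS at -0.80 with paraoxon and -0.62 with mipafox, and MARS at -0.52 with mipafox. The 95% interval of the fold change stayed within 2-fold for 35 genes with paraoxon, with AARS and MARS2 as the exceptions, and for 36 with mipafox, with MARS2 as the exception. The same was true of 77.5% and 82.2% of all tested probes. The median standard error was 0.16 over the 37 genes and 0.20 over all tested probes.

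**Figure D1:**
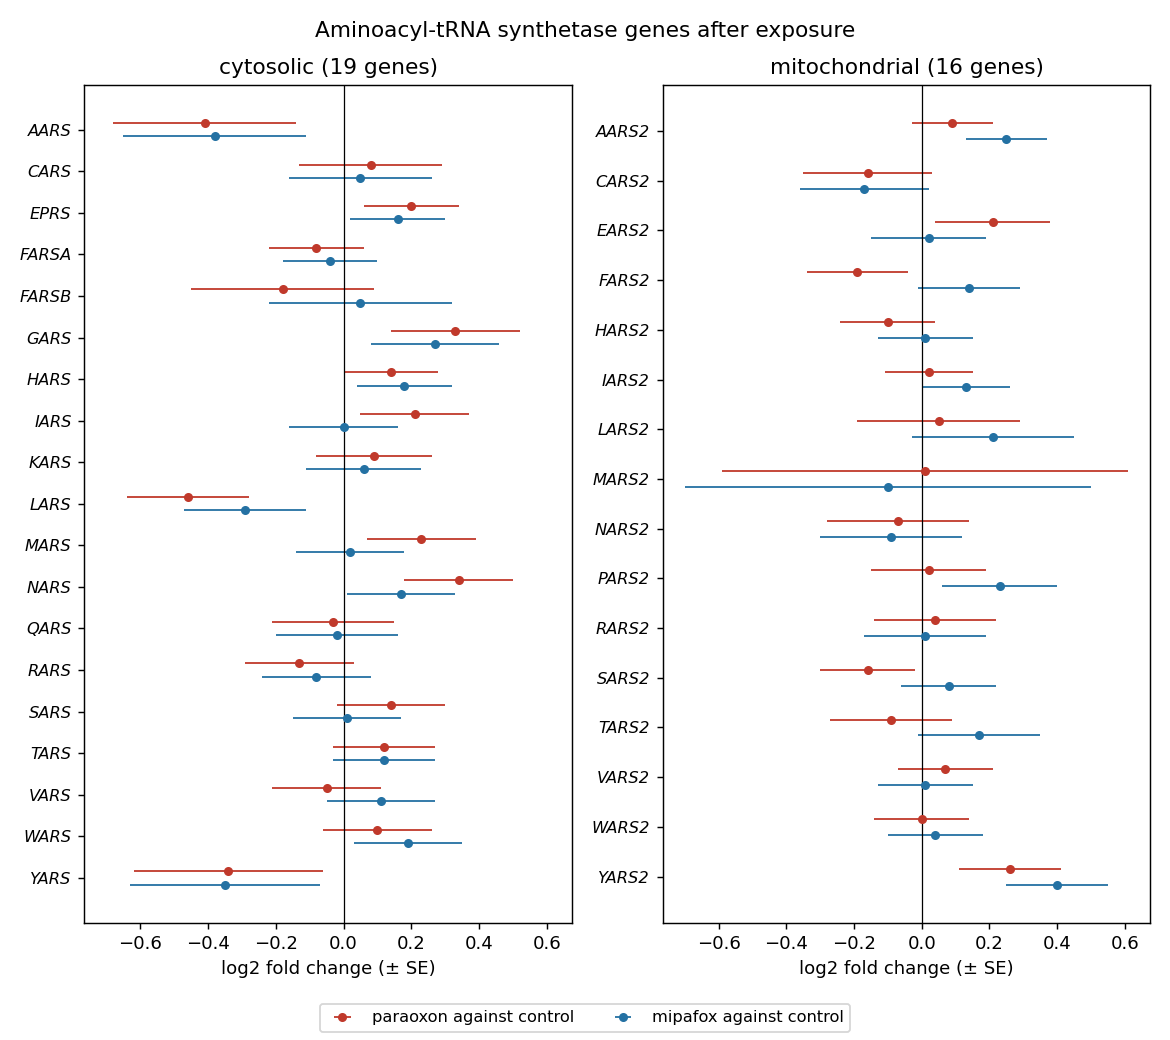
Log2 fold change (horizontal axis) of 19 cytosolic and 16 mitochondrial genes with paraoxon and mipafox against the same control arrays, from the brightest probe of the gene. Points are fitted values and bars are 1 standard error. LARS, AARS and YARS lie to the left among the cytosolic genes, YARS2 lies to the right among the mitochondrial ones, and MARS2 has the widest bars.

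The ranges of the arrays did not overlap between paraoxon and control for 7 of the 37 genes, or 18.9%, against 23.4% of all tested probes, 6 of them above control and 1 below (12.4% and 11.1% of all tested probes). Of the cytosolic genes EPRS, GARS, IARS and NARS lay above control and LARS lay below. AARS2 and YARS2 were the mitochondrial genes above control. With mipafox the ranges did not overlap for 4 genes, or 10.8%, against 11.8% of all tested probes, 2 above and 2 below (5.34% and 6.46% of all). AARS2 and YARS2 again lay above control, and AARS and YARS lay below. The 2 comparisons share the control arrays. Against mipafox, 3 mitochondrial genes, AARS2, FARS2 and SARS2, lay lower with paraoxon on all arrays, or 8.11% of the 37 genes. Of all tested probes 8.96% did not overlap, 3.84% lower and 5.12% higher with paraoxon.

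Among the enzymes of the multisynthetase complex, LARS, the leucyl enzyme that also reports leucine to the growth pathway of mTORC1, had the smallest p of a gene with paraoxon. Its level was 1.79, 1.77 and 1.62 in the controls, 1.40, 1.14 and 1.25 with paraoxon and 1.81, 1.37 and 1.13 with mipafox, each in the order of the letters A, B and C, as for all genes here. Every paraoxon array lay below every control array, and mipafox A, which was on the slide of the controls, lay above them. The log2 fold change was -0.46 (SE 0.18) with paraoxon, at an unadjusted limma p of 0.0325 and an adjusted p of 0.319. For mipafox it came to -0.29 (SE 0.18), at an adjusted p of 0.835. A fit with slide as a block gave 0.10 (SE 0.24) for paraoxon and 0.09 (SE 0.19) for mipafox, of the opposite sign.

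IARS, the isoleucyl enzyme of the complex, was measured by 3 probes that differed in sign with paraoxon. The brightest, at chr9:94972871-94972930 of hg19, read 3.77, 4.13 and 4.08 in the controls, 4.13, 4.25 and 4.23 with paraoxon and 3.87, 3.88 and 4.24 with mipafox. The dimmest, at chr9:95043107-95043166, read -1.79, -2.09 and -2.58 in the controls, -2.75, -3.07 and -3.04 with paraoxon and -2.24, -2.79 and -3.28 with mipafox. On the brightest probe paraoxon A stood level with the highest control and the other paraoxon arrays stood above it, while on the dimmest all paraoxon arrays lay below all controls. All 3 probes lie on the minus strand and are annotated to the same transcript variant of IARS.

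The dimmest IARS probe had the smallest p of any probe of the family for paraoxon, with a log2 fold change of -0.80 (SE 0.28), an unadjusted limma p of 0.0189 and an adjusted p of 0.259. The value with slide as a block was -0.01. The brightest probe gave 0.21 (SE 0.16) at an adjusted p of 0.633, or 0.03 when blocked. The remaining probe, at chr9:94991283-94991342, read 2.01, 1.78 and 1.92 in the controls, 1.67, 2.18 and 2.08 with paraoxon and 1.19, 1.82 and 3.05 with mipafox. Its mipafox arrays thus lay both far below and far above all others, and its log2 fold change was 0.08 (SE 0.39) with paraoxon and 0.12 (SE 0.39) with mipafox, or -1.18 and -0.72 when blocked by slide.

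MARS, the methionyl enzyme of the complex, which charges the initiator tRNA, had 2 probes of opposite sign in the paraoxon comparison. The brighter, at chr12:57910373-57910432, read 3.10, 3.24 and 3.28 in the controls, 3.14, 3.55 and 3.61 with paraoxon and 3.38, 3.15 and 3.15 with mipafox. The dimmer, at chr12:57884057-57884116, read -0.95, -1.12 and -1.23 in the controls, -1.20, -1.24 and -1.65 with paraoxon and -1.42, -1.66 and -1.79 with mipafox. On the dimmer probe all mipafox arrays lay below the controls, while on the brighter probe the groups overlapped. The dimmer probe had the smallest p of the family for mipafox, with a log2 fold change of -0.52 (SE 0.17), an unadjusted limma p of 0.0141 and an adjusted p of 0.556. Blocked by slide, the mipafox value was -0.32. The paraoxon value of this probe was -0.26 (SE 0.17), or 0.04 when blocked, and the brighter probe gave 0.23 (SE 0.16) with paraoxon and 0.02 (SE 0.16) with mipafox, or 0.45 and 0.17 when blocked. SARS, the seryl enzyme, had 2 probes of the same sign in the paraoxon comparison, with log2 fold changes of 0.14 (SE 0.16) and 0.01 (SE 0.13).

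**Figure D2:**
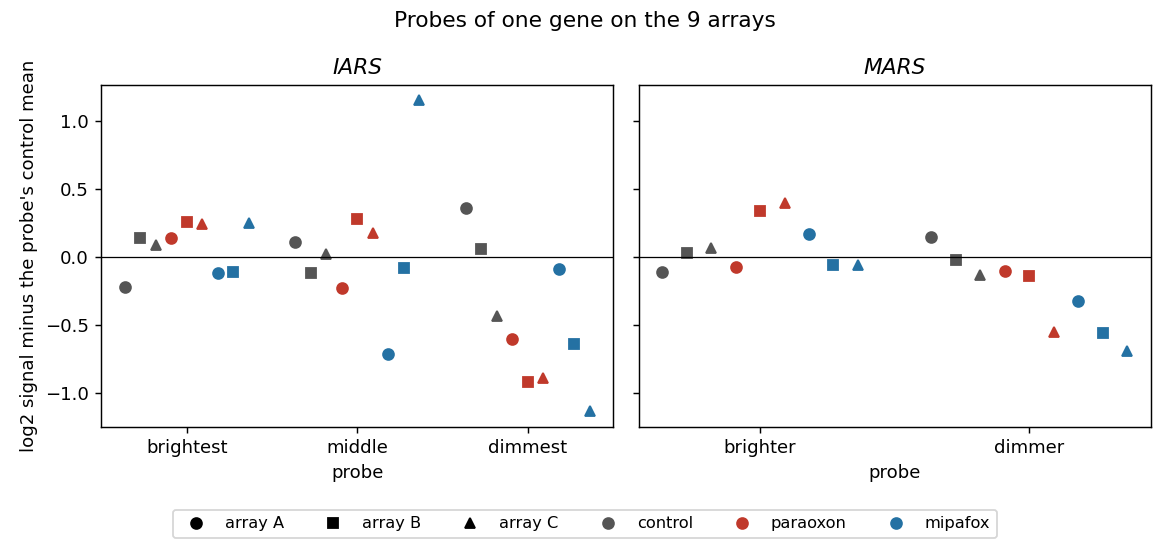
Log2 signal of each array minus the mean of the control arrays of the same probe (vertical axis), for the 3 probes of IARS and the 2 probes of MARS. Colours mark the treatment and shapes the replicate letter. The dimmest IARS probe and the dimmer MARS probe lie below 0 on all paraoxon and mipafox arrays, and the other probes do not.

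EPRS carries the glutamyl and the prolyl enzyme of the complex on a single chain. Its level was 4.39, 4.73 and 4.70 in the controls, 4.74, 4.88 and 4.79 with paraoxon and 4.69, 4.76 and 4.86 with mipafox. All paraoxon arrays lay above the highest control by a small margin, while the mipafox arrays overlapped with the controls. The log2 fold change was 0.20 (SE 0.14) with paraoxon and 0.16 (SE 0.14) with mipafox, at adjusted p of 0.614 and 0.903, and blocked values were 0.08 and 0.09. KARS, the lysyl enzyme, is made for both compartments from a single gene. It read 3.53, 3.83 and 3.99 in the controls, 3.72, 4.00 and 3.88 with paraoxon and 3.75, 3.71 and 4.06 with mipafox, and its groups overlapped. Its log2 fold changes were 0.09 (SE 0.17) and 0.06 (SE 0.17), or -0.04 and -0.03 when blocked.

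For the 8 enzymes of the complex the median difference from control on the log2 scale was 0.07 with paraoxon (5 higher, 3 lower) and 0.01 with mipafox (5 higher, 3 lower). The 12 cytosolic genes outside the complex had medians of 0.09 (7 higher, 5 lower) and 0.08 (9 higher, 3 lower). In the fit blocked by slide the medians were 0.09 and 0.09 inside the complex and -0.11 (3 higher, 9 lower) and -0.03 (5 higher, 7 lower) outside it, so that the sign outside it turned. QARS and RARS, the glutaminyl and arginyl enzymes, had log2 fold changes from -0.13 to -0.02 over both comparisons, and the opposite sign when blocked (0.45 and 0.34 with paraoxon). Of the 3 scaffold proteins that hold the complex together, 0 had an unadjusted p under 0.05 in the comparisons with control. AIMP1 had log2 fold changes of 0.08 (SE 0.15) with paraoxon and -0.04 with mipafox, AIMP2 0.07 (SE 0.13) and 0.15, and EEF1E1 -0.02 (SE 0.21) and -0.19. The blocked values were 0.32 and 0.12 for AIMP1, 0.00 and 0.10 for AIMP2 and 0.35 and 0.05 for EEF1E1.

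Of the cytosolic enzymes outside the complex, NARS, the asparaginyl enzyme, had the smallest p with paraoxon. It was read on 10 spots per array, as 2.21, 2.66 and 2.56 in the controls, 2.75, 2.89 and 2.80 with paraoxon and 2.44, 2.71 and 2.79 with mipafox. The paraoxon arrays lay close together and above all controls, and control A was the lowest of the 9 arrays. The log2 fold change was 0.34 (SE 0.16) with paraoxon, at an unadjusted limma p of 0.0667 and an adjusted p of 0.417, and 0.17 (SE 0.16) with mipafox. The fit with slide as a block gave 0.02 for paraoxon and -0.04 for mipafox.

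GARS, the glycyl enzyme, also serves both compartments from a single gene and is tied to axonal neuropathy. It read 2.10, 1.80 and 1.94 in the controls, 2.23, 2.27 and 2.35 with paraoxon and 1.84, 2.22 and 2.60 with mipafox. The paraoxon arrays lay above the controls, and the mipafox arrays spread from within the control range to above the paraoxon arrays. The log2 fold change was 0.33 (SE 0.19) with paraoxon and 0.27 (SE 0.19) with mipafox, at adjusted p of 0.514 and 0.860. Blocked by slide, the values were -0.23 (SE 0.27) and -0.11 (SE 0.21), of the opposite sign. HARS, the histidyl enzyme, read 1.34, 1.02 and 1.08 in the controls, 1.23, 1.20 and 1.42 with paraoxon and 1.33, 1.37 and 1.29 with mipafox. Control A lay within the range of the exposed arrays, and the log2 fold changes were 0.14 (SE 0.14) and 0.18 (SE 0.14).

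AARS and YARS, the alanyl and tyrosyl enzymes, were lower on the same arrays. AARS read 1.59, 1.23 and 1.37 in the controls, 1.20, 1.43 and 0.34 with paraoxon and 1.17, 0.76 and 1.12 with mipafox. YARS, named after its values were seen, read 1.26, 1.12 and 1.30 in the controls, 1.08, 1.38 and 0.18 with paraoxon and 0.97, 0.65 and 1.02 with mipafox. For both genes paraoxon C was by far the lowest of the 9 arrays, mipafox B was the next lowest, and paraoxon B lay inside or above the control range. The log2 fold changes of AARS were -0.41 (SE 0.27) with paraoxon and -0.38 (SE 0.27) with mipafox, at adjusted p of 0.580 and 0.858. Those of YARS were -0.34 (SE 0.28) and -0.35 (SE 0.28), at adjusted p of 0.665 and 0.885. When blocked by slide the values were -0.18 and -0.23 for AARS and -0.21 and -0.26 for YARS. Without paraoxon C the paraoxon values were -0.08 for AARS and 0.01 for YARS. The amino acid transporter subunit SLC3A2 and the stress protein SESN2, also named after their values were seen, were likewise lowest on paraoxon C, at -0.16 and -1.23. Their levels on the other paraoxon arrays were 0.99 and 1.17 for SLC3A2 and -0.16 and -0.18 for SESN2.

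FARSA and FARSB encode the subunits of the cytosolic phenylalanyl enzyme, which acts as a tetramer of the 2 kinds. FARSA read 1.54, 1.15 and 1.29 in the controls, 1.21, 1.28 and 1.25 with paraoxon and 1.31, 1.24 and 1.32 with mipafox. FARSB read 1.16, 1.08 and 1.28 in the controls, 0.98, 1.29 and 0.73 with paraoxon and 0.73, 1.07 and 1.87 with mipafox. FARSA was nearly level across the exposed arrays (SD 0.03 with paraoxon, 0.05 with mipafox) and spread more in the controls (SD 0.20). FARSB, with an SD of 0.10 in the controls, spread widely in both exposed groups and most of all between mipafox A and C. The log2 fold changes were -0.08 (SE 0.14) and -0.04 (SE 0.14) for FARSA, and -0.18 (SE 0.27) and 0.05 (SE 0.27) for FARSB, with paraoxon and mipafox. Blocked by slide, the FARSB values were -0.92 and -0.45.

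Among the mitochondrial enzymes YARS2, the tyrosyl enzyme, gave the smallest p in both comparisons with control. It read 1.96, 2.02 and 2.05 in the controls, 2.20, 2.16 and 2.44 with paraoxon and 2.22, 2.43 and 2.58 with mipafox. All 6 exposed arrays lay above all controls, opposite in sign to its cytosolic counterpart YARS. The log2 fold change with mipafox was 0.40 (SE 0.15), at an unadjusted limma p of 0.0216 and an adjusted p of 0.615, and its 95% interval was 0.07 to 0.73. With paraoxon it was 0.26 (SE 0.15), at an adjusted p of 0.505. With slide as a block the mipafox value was 0.21 and the paraoxon value was -0.02.

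AARS2, the mitochondrial alanyl enzyme, read 0.79, 0.71 and 0.75 in the controls, 0.85, 0.80 and 0.85 with paraoxon and 1.03, 1.07 and 0.90 with mipafox. The 3 groups did not overlap and mipafox was the highest. The log2 fold change was 0.25 (SE 0.12) with mipafox, at an unadjusted limma p of 0.0650 and an adjusted p of 0.757, and 0.09 (SE 0.12) with paraoxon. PARS2, the prolyl enzyme, read 0.81, 0.55 and 0.58 in the controls, 0.55, 0.47 and 0.99 with paraoxon and 0.81, 0.89 and 0.96 with mipafox. The mipafox arrays stood at or above the highest control, and the log2 fold change was 0.23 (SE 0.17) with mipafox and 0.02 (SE 0.17) with paraoxon.

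FARS2, the phenylalanyl enzyme of mitochondria, had the smallest p of the family for paraoxon against mipafox. It read -1.29, -1.40 and -1.25 in the controls, -1.35, -1.43 and -1.75 with paraoxon and -1.22, -1.28 and -1.01 with mipafox. Every mipafox array lay above every paraoxon array, and the control range ran across the gap between them. The difference, paraoxon minus mipafox, was -0.33 (SE 0.15) on the log2 scale, at an unadjusted limma p of 0.0552 and an adjusted p of 0.998. SARS2, the seryl enzyme, read -0.01, -0.40 and -0.33 in the controls, -0.44, -0.48 and -0.29 with paraoxon and -0.16, -0.20 and -0.12 with mipafox. Its log2 fold change was -0.16 (SE 0.14) with paraoxon and 0.08 (SE 0.14) with mipafox. EARS2, the glutamyl enzyme, read 0.26, 0.55 and 0.63 in the controls, 0.55, 0.82 and 0.71 with paraoxon and 0.33, 0.43 and 0.73 with mipafox. The groups overlapped, and the log2 fold change was 0.21 (SE 0.17) with paraoxon and 0.02 (SE 0.17) with mipafox, or -0.04 and -0.15 when blocked.

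**Figure D3:**
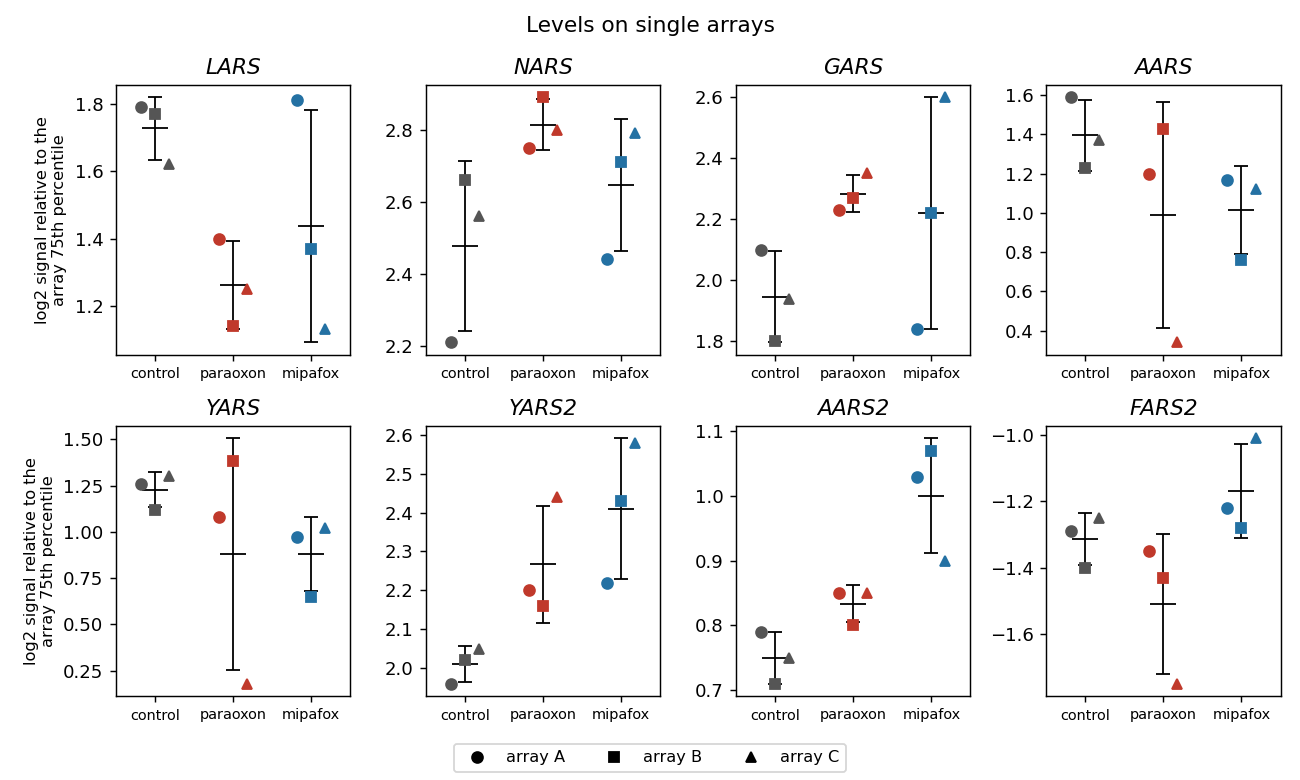
Log2 signal relative to the 75th percentile of the array (vertical axis, with its own scale for each gene) for 8 genes on the 9 arrays. Points are arrays, shapes give the replicate letter, and black bars are the mean and SD of 3 arrays. AARS and YARS are lowest on paraoxon C, and all 6 exposed arrays of YARS2 and AARS2 lie above the controls.

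MARS2 was read on 10 spots per array, at -6.16, -6.43 and -6.29 in the controls, -6.54, -5.91 and -6.40 with paraoxon and -7.83, -6.53 and -4.80 with mipafox. The SD of the mipafox arrays was 1.52, the widest of the family, and the log2 fold changes of 0.01 (SE 0.60) and -0.10 (SE 0.60) carry that spread. Blocked by slide they were -2.16 (SE 0.72) and -1.54 (SE 0.56). The spread between mipafox arrays was wider than in the other groups for many mitochondrial genes. It was the widest of the 3 groups for 13 of 17 mitochondrial genes and for 7 of 20 cytosolic genes, against 48.9% of all tested probes. The median SD over the mitochondrial genes was 0.10 in controls, 0.13 with paraoxon and 0.21 with mipafox, and the respective medians were 0.18, 0.21 and 0.26 over all tested probes. The mipafox arrays are the only group that lay on both slides, but the cause of their wider spread was not tested.

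The median fold change was small in both compartments. The median log2 fold change of the 20 cytosolic genes was 0.08 with paraoxon (12 higher, 8 lower) and 0.05 with mipafox (14 higher, 6 lower). For the 17 mitochondrial genes it was 0.01 with paraoxon (10 higher, 7 lower) and 0.08 with mipafox (14 higher, 3 lower). Blocked by slide, the paraoxon and mipafox medians were 0.01 and 0.01 for the cytosolic genes and -0.04 and 0.16 for the mitochondrial genes, beside 0.10 and 0.06 for all tested probes. Over all tested probes it was 0.01 with paraoxon (51.9% higher) and 0.00 with mipafox (50.2% higher). The mitochondrial median on single arrays, relative to the mean of the controls, was 0.156, 0.040 and 0.249 for mipafox in the order of the letters. It was -0.023, 0.054 and -0.033 for paraoxon and ran from -0.025 to 0.040 for the controls. Mipafox A and C thus stood above all other arrays, while mipafox B was no higher than control C. The median of all tested probes on mipafox A, B and C was 0.061, 0.034 and -0.085.

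The cytosolic medians on single arrays were 0.010, -0.021 and 0.103 for mipafox and -0.028, 0.086 and 0.155 for paraoxon. The cytosolic minus the mitochondrial median was 0.188 on paraoxon C and -0.146, -0.061 and -0.145 on the mipafox arrays. It was 0.001 to 0.007 on the controls. Within slide 1, mipafox A stood 0.16 above the controls in the mitochondrial median and 0.01 in the cytosolic one, against 0.06 for all tested probes. Within slide 2, paraoxon stood at -0.15 relative to mipafox B and C in the mitochondrial median and at -0.01 in the cytosolic one, against 0.05 for all tested probes. No p was computed for these medians. The pooled SD of a median between arrays of a group was 0.067 for the cytosolic and 0.069 for the mitochondrial genes, and the medians of the comparisons with control lay between 0.009 and 0.083.

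**Figure D4:**
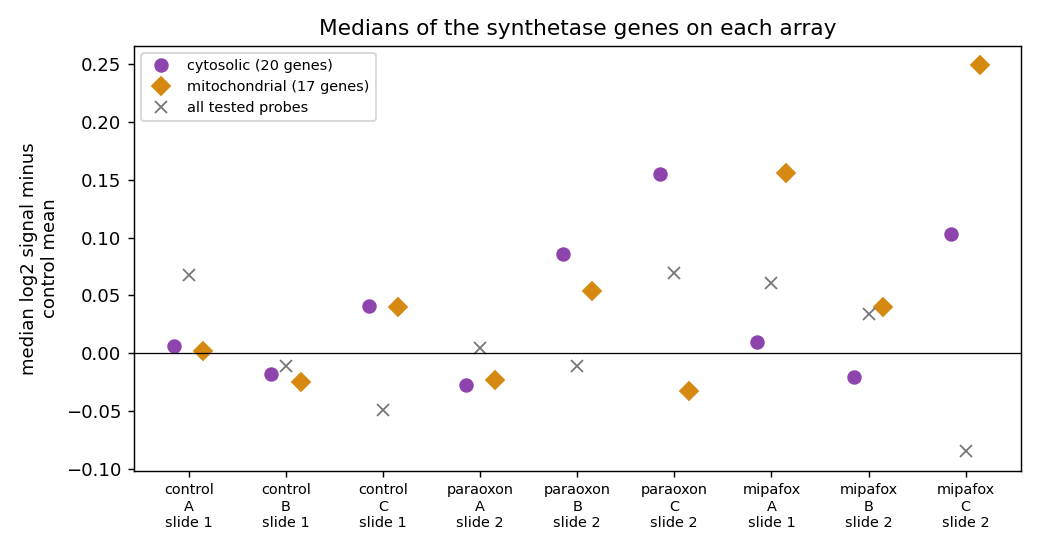
Median of log2 signal minus the mean of the control arrays (vertical axis) over the cytosolic genes, the mitochondrial genes and all tested probes, on each array. Slide and replicate letter are given under each array. The mitochondrial medians of mipafox A and C lie at 0.156 and 0.249, above those of the other arrays.

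In 14 pairs the symbols of the cytosolic and the mitochondrial gene differed only by the final 2, and many of these pairs were split in sign. The median standard error of a gene was 0.16, and most values in the pairs were no larger than that. In 0 of 14 pairs were both lower, in either comparison, or in 1 with paraoxon and 2 with mipafox when slide was a block. Both were higher in 3 pairs with paraoxon and in 7 with mipafox. Only the cytosolic gene was lower in 5 pairs with paraoxon and 4 with mipafox, and only the mitochondrial gene in 6 and 3. The enzymes for phenylalanine, glutamate and proline do not form such pairs. Those for phenylalanine were all lower with paraoxon, FARSA at -0.08, FARSB at -0.18 and FARS2 at -0.19, whereas EPRS (0.20), EARS2 (0.21) and PARS2 (0.02) were all higher. The pairs furthest apart were those for alanine, leucine and tyrosine, in which the cytosolic gene was lower and the mitochondrial gene higher in both comparisons. Without paraoxon C, however, the paraoxon values were -0.08 for AARS and 0.01 for YARS. With slide as a block LARS (0.10 with paraoxon, 0.09 with mipafox) and LARS2 (-0.48 and -0.14) had the opposite sign in both comparisons, and YARS2 (-0.02) with paraoxon. For leucine the fold changes with paraoxon were -0.46 for LARS and 0.05 for LARS2. In contrast, CARS and CARS2, the cysteinyl enzymes, had 0.08 and -0.16 with paraoxon and 0.05 and -0.17 with mipafox, each of the opposite sign when blocked (-0.18 and 0.47, -0.12 and 0.24).

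The cytosolic genes not given by array included CARS, QARS, RARS, SARS, TARS, VARS and WARS, with log2 fold changes between -0.13 and 0.19 in the comparisons with control. TARS, VARS and WARS are the threonyl, valyl and tryptophanyl enzymes. The mitochondrial genes not given by array included CARS2, HARS2, IARS2, LARS2, NARS2, RARS2, TARS2, VARS2 and WARS2, with values between -0.17 and 0.21. The adjusted p values of the genes named in both compartments were between 0.784 and 0.998. CARS2 and RARS2 read lowest on mipafox C, at 2.43 and 2.79, and LARS2 and NARS2 read highest there, at 1.90 and 1.06.

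The enzymes were also grouped by structure and by disease. The 18 class I enzymes, with a Rossmann fold at the active site, had medians of 0.03 with paraoxon and 0.01 with mipafox. The 18 class II enzymes, which are built on an antiparallel sheet, had medians of -0.02 and 0.10. Blocked by slide, the medians were 0.01 and 0.11 for class I and -0.05 and 0.03 for class II. The order of the classes with mipafox thus turned. The 7 enzymes linked to neuropathy of axons, AARS, GARS, HARS, KARS, MARS, WARS and YARS, had medians of 0.10 with paraoxon (5 higher, 2 lower) and 0.06 with mipafox (5 higher, 2 lower). The other 13 cytosolic genes had 0.06 and 0.05. In none of these groups did a gene pass the adjusted test. The median of the neuropathy enzymes with slide as a block was -0.18 with paraoxon and -0.03 with mipafox, of the opposite sign.

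Among the 8 genes with the letters of the ATF4 element 7 were higher with paraoxon, at a median of 0.22 on the log2 scale, and of the 22 genes without them 11 were higher, at a median of 0.00. Both medians were -0.04 with slide as a block. With mipafox the medians were 0.08 and 0.04. Letters and compartment went together, as 13 of the 22 genes without the letters were mitochondrial. Among cytosolic genes alone, 6 of 7 with the letters were higher with paraoxon, at a median of 0.21. Without the letters 5 of 9 were higher, at a median of 0.09. For mipafox both of these cytosolic medians were 0.05, and blocked paraoxon medians were -0.05 with and 0.08 without the letters. ATF4 itself read 6.05, 5.85 and 5.85 in the controls, 5.81, 5.87 and 6.19 with paraoxon and 6.16, 5.84 and 5.48 with mipafox, with log2 fold changes of 0.04 (SE 0.19) and -0.09, or 0.54 and 0.24 when blocked. ASNS, the asparagine synthetase and a known ATF4 target, read 4.21, 4.17 and 4.23 in the controls, 4.50, 4.70 and 4.74 with paraoxon and 4.54, 4.03 and 3.71 with mipafox. Its paraoxon arrays lay above all controls, with a log2 fold change of 0.45 (SE 0.20), an unadjusted limma p of 0.0537 and an adjusted p of 0.385, while its mipafox arrays lay on both sides, at -0.11. Its values when blocked by slide were 1.11 with paraoxon and 0.34 with mipafox.

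Over the list of amino acid stress genes, 29 of 30 were tested and 0 passed the adjusted test. FGF21, a secreted hormone, lay near background. At an unadjusted p under 0.05, 3 were higher and 1 was lower with paraoxon, and 0 were higher and 1 was lower with mipafox. Of all tested probes 7.31% were higher and 6.02% lower at that limit with paraoxon, and 2.96% and 4% with mipafox. The median log2 fold change was 0.12 with paraoxon and -0.04 with mipafox, or 0.14 and 0.02 when blocked. STC2, a secreted glycoprotein, read -0.76, -0.62 and -0.64 in the controls and -0.09, -0.20 and -0.05 with paraoxon, a log2 fold change of 0.56 (SE 0.16) at an unadjusted limma p of 0.00596 and an adjusted p of 0.166. The blocked value was 0.10. ALDH1L2, a mitochondrial enzyme of folate metabolism, read -4.36, -4.74 and -4.66 in the controls, -5.06, -5.15 and -5.51 with paraoxon and -5.07, -5.18 and -5.44 with mipafox. Its log2 fold change was -0.65 (SE 0.18) with paraoxon, at an unadjusted limma p of 0.00513 and an adjusted p of 0.158, and -0.65 with mipafox, or -0.42 and -0.49 when blocked.

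The partners of the mitochondrial enzymes in translation gave 0 higher and 2 lower of 18 with paraoxon at an unadjusted p under 0.05, and 0 with mipafox, and 0 passed the adjusted test. Their medians were -0.14 and -0.07, or -0.05 and -0.02 when blocked. TRMU, which modifies mitochondrial tRNA, had a log2 fold change of -0.49 (SE 0.20) with paraoxon and -0.07 with mipafox. TFAM, which packs mitochondrial DNA and acts in its transcription, had -0.67 (SE 0.29) and -0.63. TFAM and the polymerase POLRMT stood on this list, though neither acts in translation itself. With slide as a block the paraoxon values were -0.38 for TRMU and 0.29 for TFAM, and the mipafox values were 0.00 and 0.01. TUFM, the mitochondrial elongation factor that delivers charged tRNA, had -0.19 (SE 0.16) and 0.09, or 0.16 and 0.33 when blocked. Of 9 cytosolic elongation factors 1 was lower with paraoxon at an unadjusted p under 0.05, EIF5A at -0.68 (SE 0.23), with an adjusted p of 0.246 and a value of -0.25 with slide as a block. The next smallest p was that of EEF2K, the kinase of elongation factor EEF2, at 0.23 (SE 0.15), or 0.44 when blocked. The median over these factors was -0.11 with paraoxon and -0.10 with mipafox (6 of 9 lower in both), and turned to 0.44 and 0.18 (8 of 9 higher in both) with slide as a block.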

How the data were processed

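RNA was measured on 9 one-colour Agilent arrays, 3 per treatment, grouped by the sample labels. The authors deposited the scanner output of each array, made with Agilent Feature Extraction 10.5.1.1, with the intensity of each spot on a linear scale, and their own processed log2 values in a further table. The paper names the limma package and a fold change limit of 2, and the normalization it took from a package manual is not given in the sources used here. Probe coordinates are on hg19 per the file headers and those of promoter windows on GRCh38.p14, and the builds were not mixed.

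The log2 of the processed signal was set relative to the 75th percentile of its array, without control spots and flagged outliers, and averaged over the spots of a probe. Of 42405 probes, 29134 were tested, those that stood well above background on all arrays of some treatment and had 2 or more values in each, with limma 3.58.1 in R 4.3.3, as a fit of 9 arrays with a mean for each treatment, and p-values were adjusted by Benjamini-Hochberg. Counts and medians used the brightest probe of each gene. Precision is limited by the number of arrays. The test was tried on simulated arrays of 29134 probes, 200 of them raised by 2 (log2) in the paraoxon group, and called 178 of the 200 and 3 others. That change was larger than every fold change of the family in the fit without a block, and no slide effect was simulated. The recovery of changes as small as those of the family was therefore not tested.

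The genes and lists were chosen with earlier results of these data known. Values by array were given for the 4 cytosolic and 4 mitochondrial genes with the smallest p in each comparison with control, for GARS, KARS, EPRS, FARSA and FARSB, and for all probes of genes whose probes differed in sign, except that some members are counted but their own values are not reported here. Of the other lists, values were given for the 2 genes with the smallest p and for ATF4, ASNS, AIMP1, AIMP2, EEF1E1 and TUFM. Promoter windows were matched by symbol, or by the older symbol that the array uses. Alternatives covered the normalization, background correction, the authors' log2 values, the filter on dim probes, slide and replicate letter as blocks, which arrays were fitted, array weights, the variance model, the choice of probe, outlier flags, thresholds and each array left out. Figures were drawn with matplotlib 3.10.9.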

Additional observations from a re-analysis of the deposited data

How the results depend on the processing

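Under the alternatives listed, 0 probes of the family were called for paraoxon or mipafox against control or between them, except that without the adjustment and the fold change limit 2 were counted for paraoxon and 2 for mipafox. With 1 array left out at a time the counts of called probes were 0 throughout. Over all tested probes the calls numbered 0 in most of these fits, but 671 with paraoxon and 800 with mipafox under array weights, 1 and 6 with slide as a block, and 276 with paraoxon when only paraoxon and control arrays were fitted. Without mipafox A they numbered 276 with paraoxon and 76 with mipafox, without mipafox B 77 with paraoxon, and without mipafox C 1 with paraoxon. The median log2 fold change of the cytosolic genes with paraoxon (0.083) was 0.008 with slide as a block, 0.010 with array weights and 0.019 with the mean over the probes of a gene, where the cytosolic minus mitochondrial median (0.074) was 0.010. That of the mitochondrial genes with mipafox (0.083) was 0.156 with slide as a block, and the cytosolic minus mitochondrial median with mipafox (-0.034) was -0.146. The cause was not tested.

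With 1 array left out at a time, the cytosolic median lay between 0.046 and 0.094 with paraoxon and between 0.037 and 0.081 with mipafox. The mitochondrial median lay between -0.018 and 0.030 with paraoxon and between 0.049 and 0.125 with mipafox. Their difference lay between 0.047 and 0.084 with paraoxon and between -0.088 and -0.007 with mipafox. With slide as a block 20 of 37 genes kept their sign with paraoxon and 23 of 37 with mipafox, and the median of all tested probes was 0.102 and 0.061. The correlation of deviations from the group means between arrays of the same letter ran from -0.597 to 0.567. Between arrays of different letters it ran from -0.587 to 0.661. The values for letter A were 0.173, 0.262 and 0.236, and those for B and for C had both signs. Deviations from a group mean cancel within the group, which ties these correlations together. They therefore cannot decide whether the letters pair the arrays. With the letter as a replicate block the medians were 0.083 and 0.009 with paraoxon and 0.049 and 0.083 with mipafox, and 0 probes were called.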
